A study of Mus musculus with 6 samples.

Results

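A set of 10 genes of antigen presentation by major histocompatibility complex (MHC) class I were followed across 6 RNA-seq libraries of mouse heart muscle cells. They were listed by symbol and are the heavy chain genes H2-K1, H2-K2, H2-D1 and H2-Q6, the light chain gene B2m, the peptide transport and loading genes Tap1, Tap2 and Tapbp, and the immunoproteasome genes Psmb8 and Psmb9. All 10 of 10 were found among the 23337 genes of the count table, and all 10 were among the 14587 genes kept by a filter on low counts. Wild-type mice received an adeno-associated virus (AAV), a gene delivery vector, at postnatal day 1, and cardiomyocytes were isolated at 4 weeks by Langendorff perfusion of the heart and purified by fluorescence-activated sorting. The control virus carried GFP, and the other viruses carried XBP1S, the active spliced form of a transcription factor of the unfolded protein response, or ATF6N, the active N-terminal part of another such factor. The labels' treatment field shortens these to AAV-XBP1 and AAV-ATF6. Each group has 2 libraries of polyadenylated RNA, called GFP, XBP1S and ATF6N 1 and 2 below. The labels give no strain or sex, do not name the promoter that drives the transgenes, and do not say whether the libraries of a group came from separate animals, so p-values measure the spread between these libraries, which may be technical.

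MHC class I molecules are present on most nucleated cells and show peptides cut from the cell's own proteins to CD8 T cells. Peptides are made by the proteasome, carried into the endoplasmic reticulum by the transporter TAP, trimmed, and loaded onto a heavy chain paired with beta-2 microglobulin. Interferon raises the genes of this pathway together, and cardiomyocytes are known for low class I levels compared with endothelium and leukocytes. H2 genes are among the most variable of the mouse genome, and their alleles differ between strains.

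Of the members 9 lie on chromosome 17 within 1508884 bases, in the H2 complex, and B2m lies on chromosome 2. In mm10 the authors' table places H2-K1 at chr17:33996012-34000333 and H2-K2 at chr17:33974659-33978791, both on the minus strand and 17220 bases apart. H2-D1 at chr17:35263094-35267497 and H2-Q6 at chr17:35424877-35428361 are on the plus strand. Tap1 at chr17:34187556-34197225, Psmb8 at chr17:34198195-34201454, Tap2 at chr17:34204479-34216321 and Psmb9 at chr17:34182099-34187330 are neighbours. Psmb9 runs on the minus strand, away from Tap1, with 225 bases between the genes. Tapbp is at chr17:33919478-33929290 and B2m at chr2:122147687-122153082, both on the plus strand. H2-K2 is annotated as a transcribed pseudogene and the other members as protein-coding genes. No member's exons overlap another gene of the table.

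Promoter sequences are shown because class I genes share known upstream elements and because the heavy chain genes, although near copies, differed in the direction of their values. RefSeq windows from 250 bases before to 50 after the start site, on GRCm38.p6, were found for 8 of the 10 members. The members without a window are H2-K2 and Tap2. The promoter of H2-K2, the only member with a negative estimate in XBP1S against GFP, can therefore not be compared here. Each was searched on both strands for the interferon-stimulated element (GAAA, any 2 bases, GAAA), the kappa B consensus, the ER stress response element (CCAAT, 9 bases, CCACG) and the unfolded protein response element (TGACGTGG). The kappa B consensus was in 4 of the 8 windows, those of H2-K1, H2-D1, H2-Q6 and B2m, and the interferon-stimulated element was in that of B2m. For comparison, 8.46% of 32851 mouse promoter windows held the kappa B consensus, 3.44% the interferon-stimulated element, 0.119% the ER stress response element and 0.676% the unfolded protein response element. None of the 4 motifs was found in the windows of Tap1, Tapbp, Psmb8 or Psmb9, which says only that these letters are not there. The same holds for the interferon-stimulated element in the H2 windows, since looser spellings of it were not searched. The windows of Tap1 and Psmb9 overlap by 275 bases, so they are largely the same sequence. The stretches that hold the matches run 5′ to 3′ along the gene, from 40 bases before the first match to 50 bases after the last. They are H2-K1 at chr17:34000398-34000498 (minus strand), H2-D1 at chr17:35262883-35262983 (plus strand), H2-Q6 at chr17:35424637-35424737 (plus strand) and B2m at chr2:122147508-122147620 (plus strand). Capitals mark the matched bases, which in the H2 genes are 2 overlapping kappa B matches and in B2m the interferon-stimulated element followed by a kappa B match.
H2-K1: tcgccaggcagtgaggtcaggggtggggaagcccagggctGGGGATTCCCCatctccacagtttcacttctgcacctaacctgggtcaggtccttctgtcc
H2-D1: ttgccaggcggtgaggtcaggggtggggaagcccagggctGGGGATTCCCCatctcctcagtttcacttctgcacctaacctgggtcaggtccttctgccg
H2-Q6: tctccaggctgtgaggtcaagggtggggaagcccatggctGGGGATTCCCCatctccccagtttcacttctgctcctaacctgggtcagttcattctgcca
B2m: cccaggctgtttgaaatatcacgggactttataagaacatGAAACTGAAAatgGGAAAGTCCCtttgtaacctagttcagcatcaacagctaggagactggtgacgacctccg
The matched bases are identical in the H2 genes, and the letters on both sides of them are nearly so. A match is a description of sequence and not a binding site.

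Libraries held between 67702482 and 112049342 assigned counts, so that a count of 0 allows a level of up to 0.0305 to 0.0459 CPM (counts per library size, scaled by TMM to a common total), for counting error only. Library GFP 1 stood apart on the first principal component, which held 43.9% of the variance, and gave 0.337% of its counts to the ribosomal gene Rn45s against 0.0319% to 0.13% in the others. Xbp1 had 163 CPM in XBP1S against 107 CPM in GFP, a log2 fold change of 0.61 (edgeR adjusted p = 0.307), and Atf6 had 160 CPM in ATF6N against 57.8 CPM in GFP, a log2 fold change of 1.47 (adjusted p = 0.126). Neither rise was limited to its own virus. Xbp1 had 148 CPM in ATF6N, a log2 fold change of 0.47 against GFP, and Atf6 had 94.0 CPM in XBP1S, one of 0.70. In ATF6N against XBP1S the values were -0.14 for Xbp1 and 0.765 for Atf6, neither called by edgeR. The Y-linked gene Eif2s3y had 0 and 0 counts in XBP1S, 1629 and 979 in GFP, and 3595 and 2824 in ATF6N, while Xist had 4014 and 1650, 2424 and 562, and 16 and 6. The mix of sexes therefore moved with the groups, and sex and virus cannot be told apart in any comparison here. Summed over 12 genes, none at 0 in any library, cardiomyocyte markers stood at 133700 and 136300 CPM in GFP, 106700 and 114600 CPM in XBP1S, and 159000 and 156600 CPM in ATF6N. These groups did not overlap, and the order of this sum was the reverse of that of the H2 sum. The cardiomyocyte sum depends on Myh6, which stood at 22990 and 41120, 26510 and 44250, and 66560 and 65070 CPM in the same order. Of the 12 markers, 6 had a log2 fold change above 0 in ATF6N against GFP (median 0.024) and 2 in XBP1S against GFP (median -0.223). The part of this sum in the class I values was not tested.

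The class I genes were well measured in sorted cardiomyocytes, with a wide range of levels. Per length, in RPKM (the same measure divided by exon length), the mean in GFP was highest for H2-D1 at 159 ± 21.0 (SD, n = 2). B2m followed at 115 ± 35.2, and H2-K1 at 61.5 ± 14.4 and Tapbp at 58.8 ± 12.1 were closer to each other than their spread. Psmb8 at 22.3 ± 5.38 and Tap2 at 21.4 ± 4.32 were likewise not separated. The lowest were Psmb9 at 11.7 ± 4.55, H2-K2 at 10.4 ± 0.999, Tap1 at 6.50 ± 0.551 and H2-Q6 at 1.06 ± 0.00127. The order changed at its lower end in the other groups. In XBP1S, H2-K2 at 3.85 ± 0.756 RPKM was the lowest member and H2-Q6 stood at 7.69 ± 0.390, beside Tap1 at 8.57 ± 0.629. In ATF6N, H2-K2 at 1.71 ± 0.0745 and H2-Q6 at 1.91 ± 0.145 were the lowest. H2-D1 and B2m remained the highest members in both, at 251.2 ± 25.6 and 205 ± 33.9 in XBP1S, and at 114 ± 1.26 and 101 ± 3.31 in ATF6N.

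**Figure D1:**
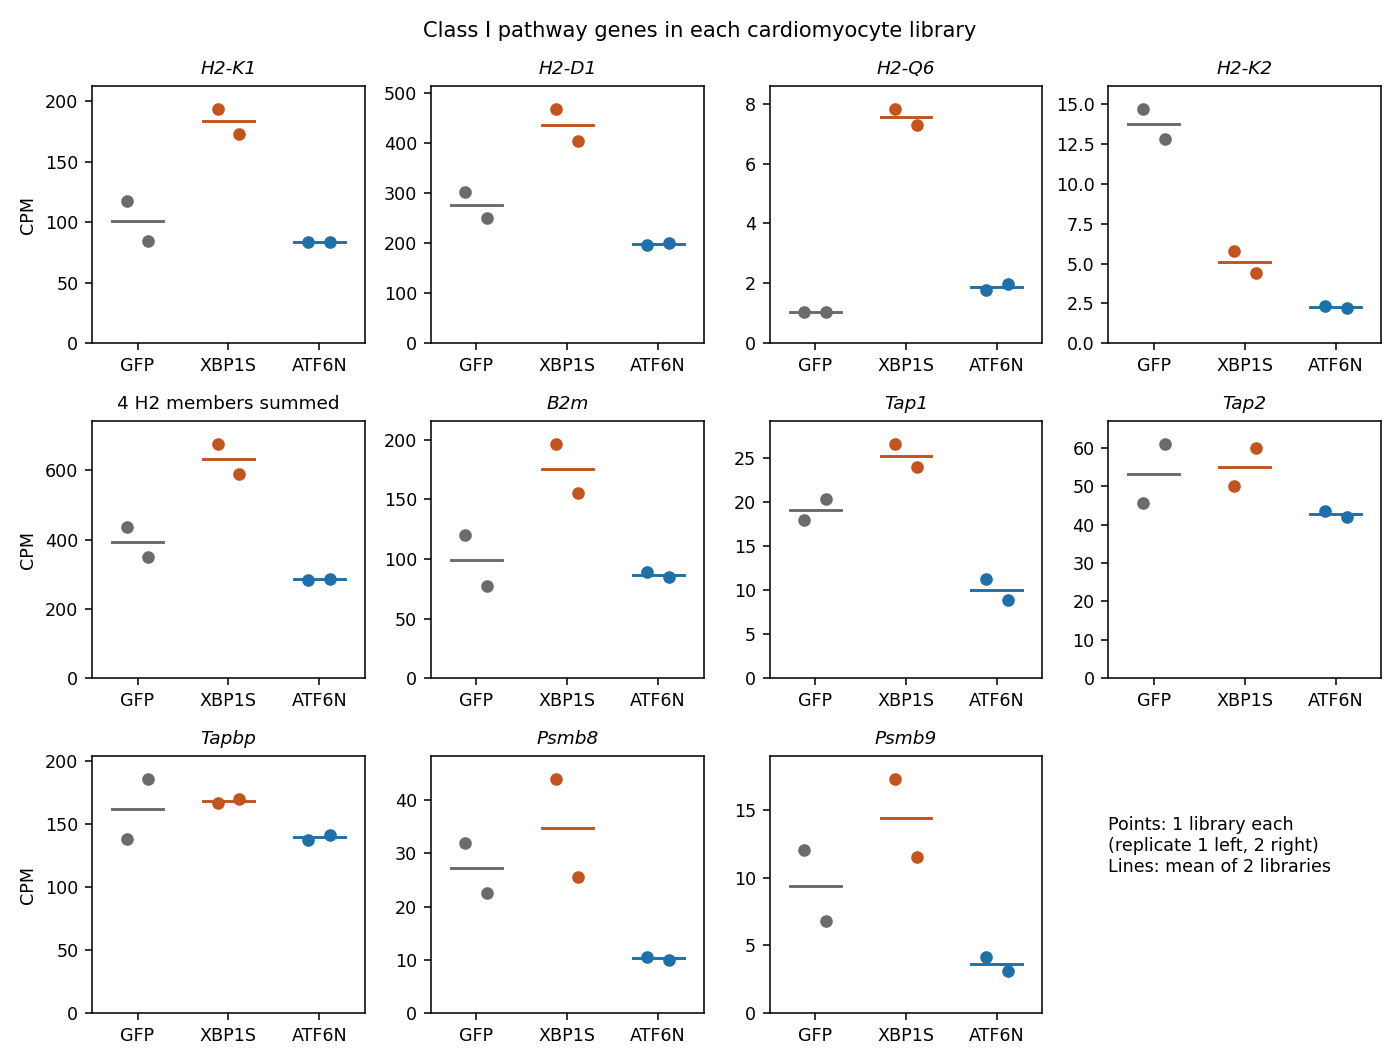
Level of each of the 10 members and of the summed H2 genes in every library, in CPM on axes that start at 0 and differ between panels, by group (GFP, XBP1S, ATF6N); each point is 1 library and the short line is the mean of the 2 libraries of a group. H2-Q6 was near 1 CPM in GFP and above 7 CPM in XBP1S, while H2-K2 was above 12 CPM in both GFP libraries and below 6 CPM in all other libraries.

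In XBP1S against GFP, H2-Q6 was the member that rose. Of the 10 members, 9 had a log2 fold change above 0, 1 was higher and 0 were lower at an adjusted p under 0.05 (the quasi-likelihood test of edgeR, adjusted by Benjamini-Hochberg across the 14587 genes), where 0.315% of all genes were called. At an unadjusted p under 0.05, 4 members were higher, against 6.37% of all genes, and 1 was lower, against 5.21%. In 5 members both XBP1S libraries lay above both GFP libraries, as in 19.1% of all genes, and in 1 both lay below, as in 16.8%. DESeq2 called 2 members higher (H2-K1 and H2-Q6), against 2.1% of all genes, and 1 lower (H2-K2), against 1.47%. The median log2 fold change was 0.505 over the members and -0.014 over all genes.

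In ATF6N against GFP, H2-K2 was the member that fell. Of the 10 members, 1 had a log2 fold change above 0, 0 were higher and 1 was lower by the adjusted p, where 0.514% of all genes were called. At an unadjusted p under 0.05, 5 members were lower, against 6.54% of all genes, and 1 was higher, against 6.92%. In 7 members both ATF6N libraries lay below both GFP libraries, as in 26.7% of all genes, and in 1 both lay above, as in 27.9%. DESeq2 called 0 members higher, against 2.42% of all genes, and 4 lower (H2-K2, Psmb8, Psmb9 and Tap1), against 1.65%. The median log2 fold change was -0.397 over the members and -0.021 over all genes. Both comparisons use the same GFP libraries, so their values are not independent of each other.

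ATF6N against XBP1S, which does not use the GFP libraries for the difference itself, separated all members in 1 direction. In all 10 both ATF6N libraries lay below both XBP1S libraries, as in 26.8% of all genes, and the median log2 fold change was -1.155 against -0.006 over all genes. By edgeR's quasi-likelihood test 0 members were called at an adjusted p under 0.05, where 0.226% of all genes were called, although 8 had an unadjusted p under 0.05 and were lower, against 7.55% of all genes. DESeq2 called 8 members lower, all but Tap2 and Tapbp, against 3.55% of all genes.

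**Figure D2:**
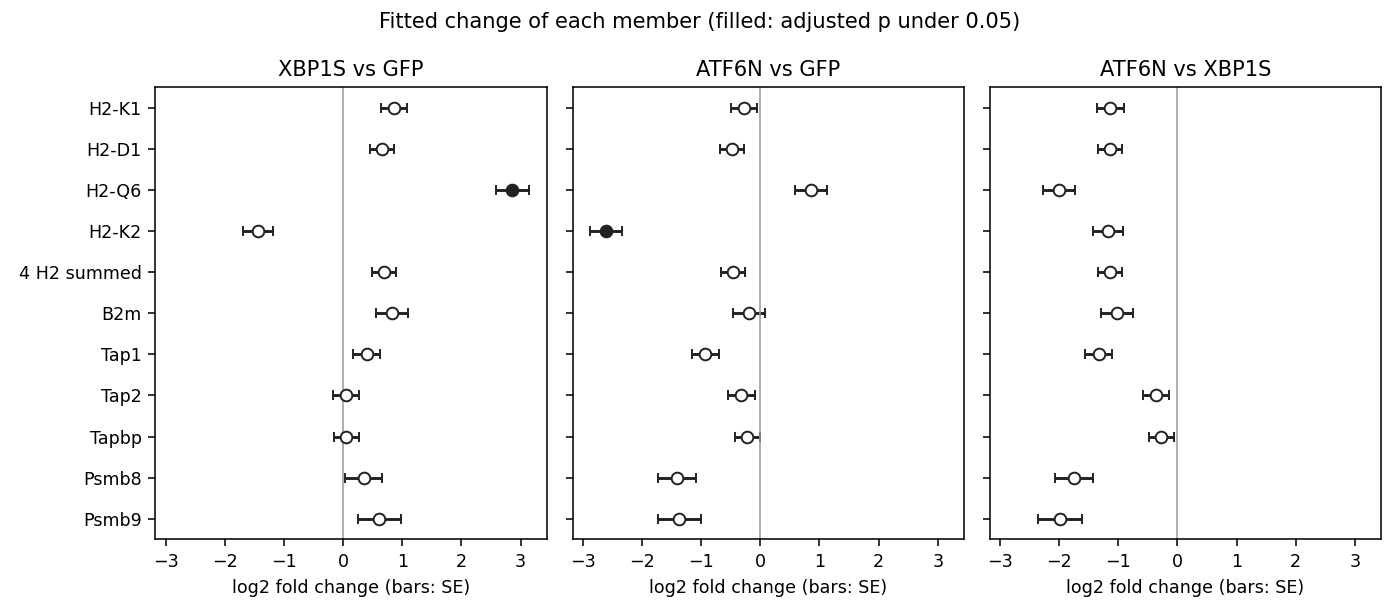
Log2 fold change of each member and of the summed H2 genes in the 3 comparisons of groups (2 libraries each); points are edgeR estimates, bars are ± 1 standard error, filled points have an adjusted p under 0.05, and the line marks 0. The filled points are H2-Q6 at 2.86 in XBP1S against GFP and H2-K2 at -2.61 in ATF6N against GFP, and all estimates of ATF6N against XBP1S lie below 0.

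Among the heavy chains, H2-D1 and H2-K1, the classical molecules that present to CD8 T cells, gave most of the counts. H2-D1 stood at 301.8 and 250.2 CPM in GFP, 467.5 and 404.7 CPM in XBP1S, and 196.7 and 199.8 CPM in ATF6N. The groups did not overlap, with XBP1S highest and ATF6N lowest. The log2 fold change of H2-D1 was 0.66 (SE 0.20, edgeR adjusted p = 0.294) in XBP1S against GFP, -0.48 (SE 0.20, adjusted p = 0.37) in ATF6N against GFP and -1.14 (SE 0.20, adjusted p = 0.0733) in ATF6N against XBP1S. H2-K1 stood at 118.0 and 84.37 CPM in GFP, 193.5 and 173.4 CPM in XBP1S, and 83.82 and 83.43 CPM in ATF6N. Its XBP1S libraries were apart from all others, and its ATF6N libraries lay just under the lower GFP library. For H2-K1 the log2 fold change was 0.86 (SE 0.23, edgeR adjusted p = 0.245) in XBP1S against GFP, which is 1.81-fold, and -0.28 (SE 0.22, adjusted p = 0.521) in ATF6N against GFP. In the direct comparison it was -1.13 (SE 0.23, adjusted p = 0.101), 2.19-fold lower in ATF6N.

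H2-Q6, a nonclassical heavy chain gene of the Qa region, had 102 and 74 counts in GFP, 727 and 595 in XBP1S, and 144 and 129 in ATF6N. In CPM these were 1.036 and 1.038, 7.814 and 7.272, and 1.774 and 1.975. The 3 groups were fully apart, with GFP lowest and XBP1S highest. H2-Q6 rose 7.27-fold in XBP1S against GFP, a log2 fold change of 2.86 (SE 0.28, edgeR adjusted p = 0.0162), and its log2 fold change in ATF6N against GFP was 0.85 (SE 0.27, adjusted p = 0.298). Against XBP1S, the ATF6N value was -2.01 on the log2 scale (SE 0.27, adjusted p = 0.0579). It was the only member with a positive estimate in ATF6N against GFP. The authors' deposited table gives H2-Q6 a log2 fold change of 2.855 in XBP1S with an adjusted p of 1.59e-07. The edgeR call was lost without any 1 of the XBP1S or ATF6N libraries (adjusted p from 0.0839 without ATF6N 2 to 0.246 without XBP1S 1), with the estimate between 2.85 and 2.92.

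H2-K2, the transcribed pseudogene next to H2-K1, ran against the other H2 members in XBP1S against GFP. It stood at 14.69 and 12.82 CPM in GFP, 5.804 and 4.388 CPM in XBP1S, and 2.329 and 2.189 CPM in ATF6N. The groups did not overlap, and both GFP libraries were the highest. H2-K2 fell 6.09-fold in ATF6N against GFP, a log2 fold change of -2.61 (SE 0.27, edgeR adjusted p = 0.0223), and had a log2 fold change of -1.43 (SE 0.25, adjusted p = 0.102) in XBP1S against GFP. The direct comparison gave -1.17 (SE 0.26, adjusted p = 0.118). It was the only member with a negative estimate in XBP1S against GFP. The ATF6N call was lost without any 1 of the XBP1S or ATF6N libraries (edgeR adjusted p from 0.0813 without XBP1S 2 to 0.332 without ATF6N 2), with the estimate between -2.65 and -2.56. The authors' deposited table lists H2-K2 at -2.599 in ATF6N (adjusted p = 4.27e-10) and at -1.438 in XBP1S (adjusted p = 0.0316).

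The H2 genes are close copies, and the counting could divide their reads. The most alike in transcript sequence were H2-K1 and H2-D1, at 91.1% identity over the aligned bases, and the least alike were H2-D1 and H2-Q6 at 81.9%. Of the 50-base words in H2-Q6 transcripts, 35.0% also occur in transcripts of other genes, against 12.8% for H2-D1, 9.63% for H2-K1 and 9.38% for H2-K2. How reads that fit several places were counted is not given in the sources used here, so the single values of H2-Q6 and H2-K2 are uncertain in that respect. The sum of the H2 members does not change with how reads are divided among them. It can change with reads that also fit other genes, such as H2-Q7, H2-Q4 and H2-Q10, which share words with members. Over all 22 class I heavy chain rows the mean sum was 446.1 CPM in GFP, 700.5 CPM in XBP1S and 307 CPM in ATF6N. Summed H2 stood at 435.5 and 348.4 CPM in GFP, 674.6 and 589.7 CPM in XBP1S, and 284.6 and 287.4 CPM in ATF6N. The groups were again apart, in the order of H2-D1. The log2 fold change of the sum was 0.69 (SE 0.20, edgeR adjusted p = 0.288) in XBP1S against GFP, 1.61-fold, and -0.45 (SE 0.20, adjusted p = 0.378) in ATF6N against GFP. It was -1.14 (SE 0.20, adjusted p = 0.0768) in ATF6N against XBP1S, 2.21-fold lower, and this difference passed the threshold with DESeq2 (adjusted p = 0.00019).

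The makeup of the H2 counts moved in its small parts. H2-D1 held 68.6% to 71.8% of the 4 genes' counts in every library, and H2-K1 held 24.2% to 29.4%. H2-K2 held 3.37% and 3.68% in GFP, 0.86% and 0.744% in XBP1S, and 0.818% and 0.762% in ATF6N. On this share, unlike on its CPM, XBP1S and ATF6N overlap, and both lie below GFP. H2-Q6 held 0.238% and 0.298% in GFP, 1.16% and 1.23% in XBP1S, and 0.623% and 0.687% in ATF6N, with all 3 groups apart.

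B2m, the light chain that every class I heavy chain needs to reach the surface, had no called difference. It stood at 120.2 and 77.53 CPM in GFP, 196.1 and 154.9 CPM in XBP1S, and 88.71 and 84.7 CPM in ATF6N. The XBP1S libraries were the highest, and the ATF6N libraries lay between the GFP libraries. Its log2 fold change was 0.83 (SE 0.27, edgeR adjusted p = 0.323) in XBP1S against GFP, -0.19 (SE 0.26, adjusted p = 0.706) in ATF6N against GFP and -1.02 (SE 0.27, adjusted p = 0.169) in ATF6N against XBP1S. Over the 6 libraries B2m and H2-K1 had the highest correlation of any pair of members, with r = 0.985 for log2 CPM, and H2-K2 with H2-Q6 the lowest, with r = -0.343. These describe libraries that share depth and groups.

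Of the transport and loading genes, Tap1 had its lowest libraries in ATF6N, and Tap2 and Tapbp varied less; none was called. Tap1, a subunit of the peptide transporter, stood at 18.02 and 20.31 CPM in GFP, 26.58 and 23.96 CPM in XBP1S, and 11.29 and 8.834 CPM in ATF6N. The groups did not overlap. The log2 fold change was 0.40 (SE 0.22, edgeR adjusted p = 0.549) in XBP1S against GFP, -0.93 (SE 0.23, adjusted p = 0.195) in ATF6N against GFP and -1.33 (SE 0.23, adjusted p = 0.0698) in ATF6N against XBP1S. Tap2, the other transporter subunit, stood at 45.74 and 60.96 CPM in GFP, 50.06 and 60.11 CPM in XBP1S, and 43.7 and 41.92 CPM in ATF6N. GFP and XBP1S overlapped, and the estimates for Tap2 were 0.05, -0.32 and -0.36 in the same order, the last with an SE of 0.23 (adjusted p = 0.544). Tapbp, or tapasin, which bridges the transporter and the heavy chain, stood at 138.2 and 185.3 CPM in GFP, 166.5 and 169.6 CPM in XBP1S, and 137.4 and 141.2 CPM in ATF6N. The GFP libraries of Tapbp spanned the XBP1S libraries, and the estimates were 0.06, -0.22 and -0.27, the last with an SE of 0.21 (adjusted p = 0.645). Tap2 and Tapbp varied together over the libraries (r = 0.922, 6 libraries). Of the words in their transcripts, 11.6% and 23.2% also occur in other genes, against 0.442% for Tap1. For Tap2 most of the shared words occur in Gm15821, and for Tapbp in Gm19412, neither of them an H2 gene.

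Psmb8 and Psmb9 encode catalytic subunits that replace Psmb5 and Psmb6 in the immunoproteasome. Psmb8 stood at 31.96 and 22.64 CPM in GFP, 43.9 and 25.59 CPM in XBP1S, and 10.58 and 10.07 CPM in ATF6N. Psmb9 stood at 12 and 6.818 CPM in GFP, 17.23 and 11.54 CPM in XBP1S, and 4.165 and 3.123 CPM in ATF6N. For both genes GFP and XBP1S overlapped, and both ATF6N libraries lay below all others. In ATF6N against GFP, Psmb8 had a log2 fold change of -1.40 (SE 0.32, edgeR adjusted p = 0.177) and Psmb9 of -1.37 (SE 0.37, adjusted p = 0.237). These passed the threshold in the authors' deposited table, at -1.395 with an adjusted p of 0.00302 for Psmb8 and at -1.361 with 0.0483 for Psmb9. In ATF6N against XBP1S the values were -1.75 for Psmb8 (SE 0.32, edgeR adjusted p = 0.0833) and -1.98 for Psmb9 (SE 0.37, adjusted p = 0.0881). In XBP1S against GFP they were 0.35 (SE 0.31, adjusted p = 0.691) and 0.61 (SE 0.36, adjusted p = 0.567). Without library GFP 2 the edgeR values in ATF6N against GFP were -1.62 for Psmb8 (adjusted p = 0.033) and -1.71 for Psmb9 (adjusted p = 0.0325), and without GFP 1 they were -1.13 (adjusted p = 0.267) and -0.90 (adjusted p = 0.39). Each of these fits has 1 GFP library, which is assumed to vary like the other groups. Psmb8 and Psmb9 had r = 0.976 over the 6 libraries.

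Set against their constitutive counterparts, the immunosubunits separated the groups more cleanly than in CPM. Per length, Psmb8 made up 9.9% and 11.2% of the sum of Psmb8 and Psmb5 in GFP, 17.1% and 14.8% in XBP1S, and 6.57% and 6.3% in ATF6N. Psmb9 made up 2.65% and 2.6% of the sum of Psmb9 and Psmb6 in GFP, 5% and 5.09% in XBP1S, and 1.84% and 1.29% in ATF6N. In both pairs the groups did not overlap and XBP1S was highest. Psmb10, the remaining immunosubunit, made up 19.6% and 18.9% of its pair with Psmb7 in GFP, 22.4% and 24% in XBP1S, and 20.5% and 20% in ATF6N, again without overlap but with ATF6N above GFP. The mean level of Psmb10 itself was not above GFP, at 64.55 CPM in GFP, 63.56 CPM in XBP1S and 49.33 CPM in ATF6N. Psmb7 had means of 205.5, 162.1 and 148.3 CPM in the same order. Psmb5, Psmb6 and Psmb7 had log2 fold changes of -0.38, -0.36 and -0.34 in XBP1S against GFP and of -0.65, -0.59 and -0.47 in ATF6N against GFP, none called by edgeR or DESeq2 and none at an unadjusted p under 0.05 in either comparison. For each of the 3, library GFP 1 was the highest of the 6 libraries. In all 3 both ATF6N libraries lay below both GFP libraries, as in 26.7% of all genes. A share can therefore move with either gene of its pair.

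**Figure D3:**
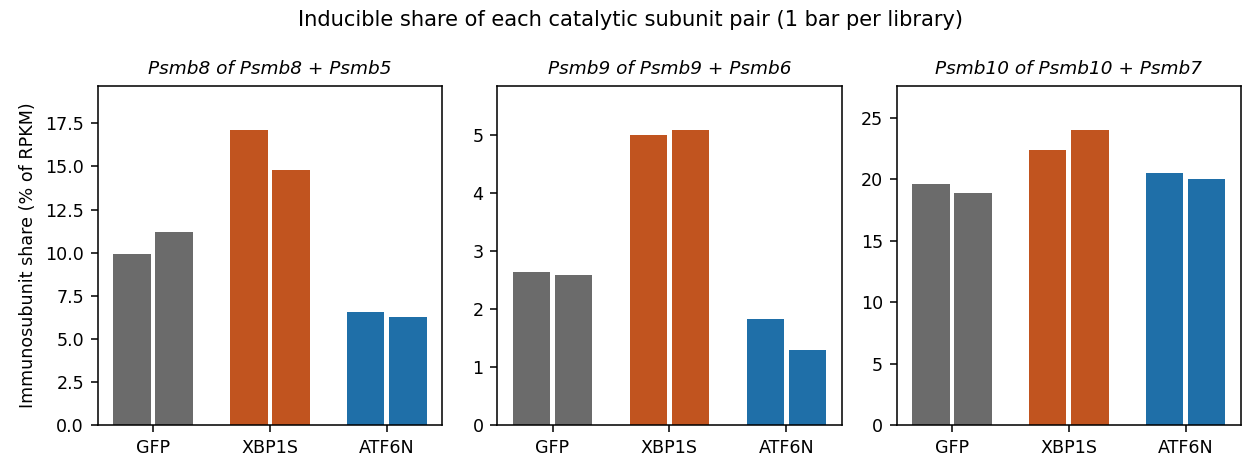
Share of each immunosubunit in the sum of the subunit and its constitutive counterpart (Psmb8 with Psmb5, Psmb9 with Psmb6, Psmb10 with Psmb7), in percent of RPKM, by group; each bar is 1 library, from 0. XBP1S libraries were the highest in all 3 pairs, and ATF6N libraries were the lowest for Psmb8 and Psmb9 but lay between GFP and XBP1S for Psmb10.

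The other class I heavy chain genes were mostly near 0. With the members, 22 such rows were in the table, 6 of them at 0 in all libraries (H2-Q7, H2-Q9, H2-T9, H2-T22, H2-M2 and H2-M9). Of the 18 rows that are not members 8 were tested, none was called by edgeR in any of the 3 comparisons, and the median log2 fold changes were 0.284 in XBP1S against GFP, -0.818 in ATF6N against GFP and -1.254 in ATF6N against XBP1S. At an unadjusted p under 0.05 there were 2 higher in the first of these, 3 lower in the next and 4 lower in the last, and DESeq2 called 0, 2 and 3, all lower. Over all genes the unadjusted shares were 6.37% higher, 6.54% lower and 7.55% lower in the same order. DESeq2 called 1.65% of all genes lower in ATF6N against GFP and 3.55% in ATF6N against XBP1S. H2-T23, which encodes the Qa-1 molecule read by receptors of natural killer cells, stood at 42.2 and 33.22 CPM in GFP, 50.14 and 37.56 CPM in XBP1S, and 12.75 and 13.21 CPM in ATF6N. Its log2 fold change was -1.54 (SE 0.24, edgeR adjusted p = 0.0616) in ATF6N against GFP and 0.22 in XBP1S against GFP. H2-M3, which presents formylated peptides, stood at 7.164 and 4.251, 13.07 and 10.79, and 2.834 and 2.894 CPM in the same order of groups. H2-T24, a further gene of the T region, stood at 8.251 and 5.359, 6.814 and 5.207, and 2.23 and 1.96 CPM, with a log2 fold change of -1.70 (SE 0.32, edgeR adjusted p = 0.111) in ATF6N against GFP. All 3 genes had their lowest libraries in ATF6N, as the classical heavy chains did. Of the words in H2-T22 transcripts 53.5% occur in other genes, and a row listed at 0 says no more than that no read was assigned to it.

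Genes of loading and trimming in the endoplasmic reticulum were mixed. Of the 10 tested, 6 had a log2 fold change above 0 in XBP1S against GFP and 6 in ATF6N against GFP, with none called by edgeR and medians of 0.184 and 0.347. At an unadjusted p under 0.05 these were 1 higher and 0 lower in XBP1S, and 4 higher and 2 lower in ATF6N, where DESeq2 called 3 higher (Calr, Pdia3 and Uggt1). Of all genes, 6.37% were higher and 5.21% lower in XBP1S, and 6.92% and 6.54% in ATF6N, where DESeq2 called 2.42% higher. In ATF6N against XBP1S the median was 0.061, with 3 higher and 2 lower at an unadjusted p under 0.05, and DESeq2 called the same 3 genes higher and Tapbpl lower. Of all genes 7.55% were lower in this comparison by the unadjusted p and 3.55% by DESeq2. DESeq2 called 839 of the 14587 genes here, counting both directions. The share of all genes that were higher is not given, so the 3 higher genes cannot be set against it. Calr, the chaperone calreticulin of the loading complex, stood at 357.6 and 314.5 CPM in GFP, 294.5 and 280.6 CPM in XBP1S, and 703.1 and 689.4 CPM in ATF6N. The log2 fold change of Calr was 1.05 (SE 0.18, edgeR adjusted p = 0.0908) in ATF6N against GFP and -0.22 in XBP1S against GFP. Pdia3, the thiol oxidoreductase bound to tapasin, had 1.12 (adjusted p = 0.0632) and Uggt1, a glycoprotein folding sensor, had 1.53 (adjusted p = 0.0529) in ATF6N against GFP. Erap1, the peptide-trimming aminopeptidase, had 0.75 in ATF6N and 0.48 in XBP1S against GFP. Other genes of the list had their lowest libraries in ATF6N. Tapbpl, the tapasin-related peptide editor, stood at 13.51 and 11.18 CPM in GFP, 16.48 and 14.43 CPM in XBP1S, and 6.531 and 7.548 CPM in ATF6N. Sec61b, a subunit of the protein channel of the endoplasmic reticulum, had log2 fold changes of -1.003 (SE 0.40, edgeR adjusted p = 0.358) against GFP and -0.98 (SE 0.40, adjusted p = 0.361) against XBP1S, and Tmed10, a cargo receptor, had -0.37 and -0.16.

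Of 23 known regulators of class I genes, Irf1 was called, and it fell in both comparisons with GFP. Irf1, an interferon-induced activator of class I promoters, stood at 190.9 and 233.4 CPM in GFP, 49.09 and 46.7 CPM in XBP1S, and 26.65 and 27.71 CPM in ATF6N. The groups were far apart, with GFP highest. Of the 23 regulators, 4 were higher and 3 lower in XBP1S and 1 higher and 4 lower in ATF6N at an unadjusted p under 0.05, and DESeq2 added calls of Nlrc5 (higher) and Relb (lower) in XBP1S and of Relb (lower) in ATF6N. Of all genes at this unadjusted p, 6.37% were higher and 5.21% lower in XBP1S, and 6.92% and 6.54% in ATF6N. DESeq2 called 2.1% of all genes higher and 1.47% lower in XBP1S, and 1.65% lower in ATF6N. In ATF6N against XBP1S edgeR called 0, 5 were lower and 0 higher at an unadjusted p under 0.05, and DESeq2 called Irf1, Nfkb1 and Nlrc5 lower. Of all genes 7.55% were lower there by the unadjusted p and 3.55% by DESeq2. The log2 fold change of Irf1 against GFP was -2.15 (SE 0.20, edgeR adjusted p = 0.0155) in XBP1S and -2.96 (SE 0.21, adjusted p = 0.00567) in ATF6N. Of the members, H2-K2 alone had this order of groups. Nlrc5, the class I transactivator, had the order of H2-Q6 instead, at 0.9043 and 1.052 CPM in GFP, 3.858 and 3.923 CPM in XBP1S, and 1.688 and 1.455 CPM in ATF6N. For Nlrc5 the log2 fold change was 1.99 (SE 0.32, edgeR adjusted p = 0.0842) in XBP1S and 0.69 in ATF6N against GFP, and in the authors' deposited table it is 1.986 in XBP1S with an adjusted p of 0.0133.

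**Figure D4:**
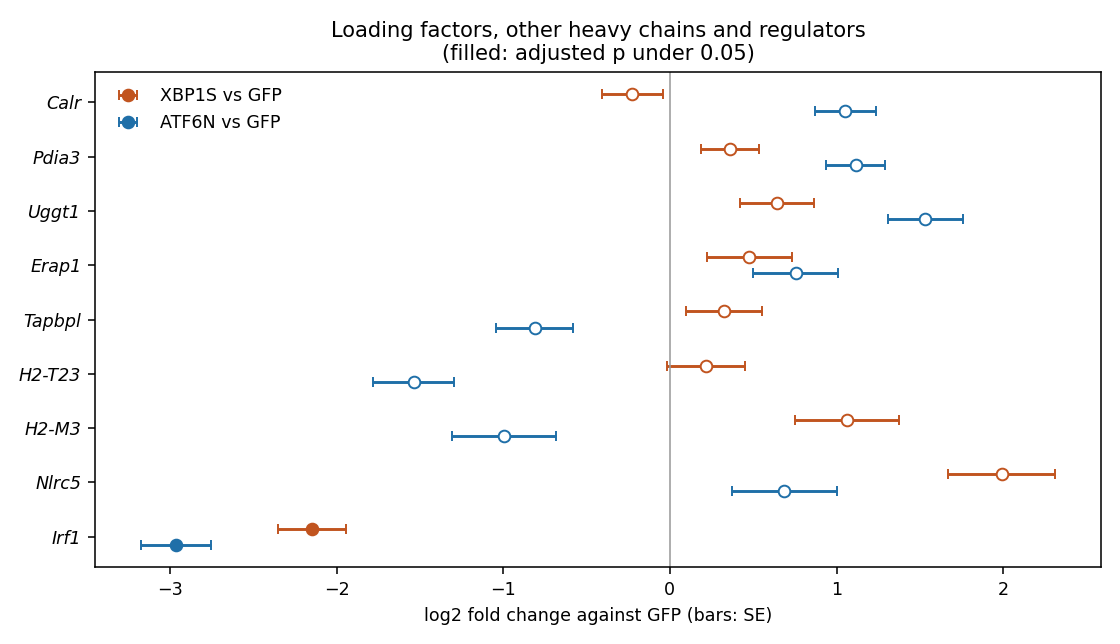
Log2 fold change against GFP in XBP1S and ATF6N for genes of loading and trimming, other heavy chains and regulators of class I; points are edgeR estimates from 2 libraries per group, bars are ± 1 standard error, filled points have an adjusted p under 0.05, and the line marks 0. Irf1 is the gene with filled points, at -2.15 and -2.96, while Calr, Pdia3 and Uggt1 lie above 1 in ATF6N only as estimates that missed the threshold.

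Endothelial markers had the same order of groups as the class I sum. Summed over 14 genes, none of them at 0 in any library, they stood at 1648 and 1409 CPM in GFP, 1902 and 2030 CPM in XBP1S, and 934.7 and 875.7 CPM in ATF6N. Of the 14, 13 had a log2 fold change above 0 in XBP1S against GFP (median 0.459), 1 in ATF6N against GFP (median -0.526) and 0 in ATF6N against XBP1S (median -1.004), with none called by edgeR. In the same order there were 3 higher, 6 lower and 11 lower at an unadjusted p under 0.05, and DESeq2 called 0, 4 and 8, all lower. Over all genes the unadjusted shares were 6.37% higher, 6.54% lower and 7.55% lower. DESeq2 called 1.65% of all genes lower in ATF6N against GFP and 3.55% in ATF6N against XBP1S. In the direct comparison the median of the members was -1.155. Pecam1, an endothelial adhesion molecule, stood at 71.83 and 124.8, 143 and 180.3, and 88.09 and 80.73 CPM in the 3 groups, and Emcn, an endothelial sialomucin, at 39.33 and 36.97, 57.36 and 50.17, and 18.71 and 18.19 CPM. In bulk libraries fewer cells of a type and less RNA per cell cannot be told apart, and the part of endothelial RNA in the class I values was not tested.

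Divided by the endothelial sum, summed H2 was 0.264 and 0.247 in GFP, 0.355 and 0.291 in XBP1S, and 0.304 and 0.328 in ATF6N. On this ratio XBP1S and ATF6N overlapped, and both lay above GFP. The endothelial sum depends on Fabp4, a fatty acid binding protein, which gave 722.7 and 301.9 CPM in GFP, 593.2 and 437.6 CPM in XBP1S, and 188.7 and 183.4 CPM in ATF6N. Without Fabp4, an alternative chosen after seeing the data, the ratio was 0.47 and 0.315 in GFP, 0.515 and 0.37 in XBP1S, and 0.382 and 0.415 in ATF6N, so that all groups overlapped. The endothelial sum itself kept its order over the other 13 markers, at 925.6 and 1107, 1309 and 1593, and 745.9 and 692.3 CPM. Among the other cell types, leukocyte markers summed to 44.23 and 45.15 CPM in GFP, 71.67 and 59.71 CPM in XBP1S, and 60.7 and 59.62 CPM in ATF6N, with Cd3e, a T cell marker, at 0 counts in 3 of the 6 libraries. Fibroblast markers summed to 901.5 and 1141, 1606 and 1748, and 1383 and 1337 CPM, and smooth muscle and pericyte markers to 952.3 and 1064, 1085 and 1182, and 1320 and 1273 CPM. In each of these sums both ATF6N libraries lay above both GFP libraries. All 10 fibroblast markers had a log2 fold change above 0 in XBP1S against GFP (median 0.687). Of these, 5 had an unadjusted p under 0.05, against 6.37% of all genes. DESeq2 called Lum and Lyz2 higher in that comparison, against 2.1% of all genes. It called Col1a1 higher in ATF6N against GFP (2.42% of all genes) and Dcn lower in ATF6N against XBP1S (3.55%). The smooth muscle and pericyte sum depends on Acta2, smooth muscle actin: over the other 7 markers, chosen after seeing the data, it was 288 and 534.6, 423.7 and 648.7, and 510.3 and 455.2 CPM, and the groups overlapped. Within it the pericyte genes Kcnj8, at 72.55 and 61.27, 105.9 and 80.78, and 32.99 and 29.52 CPM, and Rgs5, at 50.57 and 47.41, 68.66 and 75.46, and 34.29 and 30.64 CPM, had the order of the H2 sum. DESeq2 called both lower in ATF6N against XBP1S, against 3.55% of all genes. Other markers of this list did not have that order. Cspg4 stood at 16.3 and 20.54, 23.53 and 30.24, and 24.25 and 27.71 CPM. Abcc9 stood at 92.14 and 279.4, 127.7 and 295.7, and 321.5 and 289.1 CPM. For both, the ATF6N libraries lay above the GFP libraries. Of the 8 markers, 5 had a log2 fold change above 0 in ATF6N against GFP (median 0.297). The MHC class II genes, expressed by professional antigen-presenting cells, summed over 11 genes to 24.26 and 21.58, 39.06 and 30.36, and 26.48 and 27.85 CPM, and 0 of the 9 tested were called by edgeR in any of the 3 comparisons. The class II genes had 3 higher in XBP1S against GFP at an unadjusted p under 0.05, against 6.37% of all genes. DESeq2 called 0 of the class II genes in every comparison. The part of these cell types in the class I values was not tested either.

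**Figure D5:**
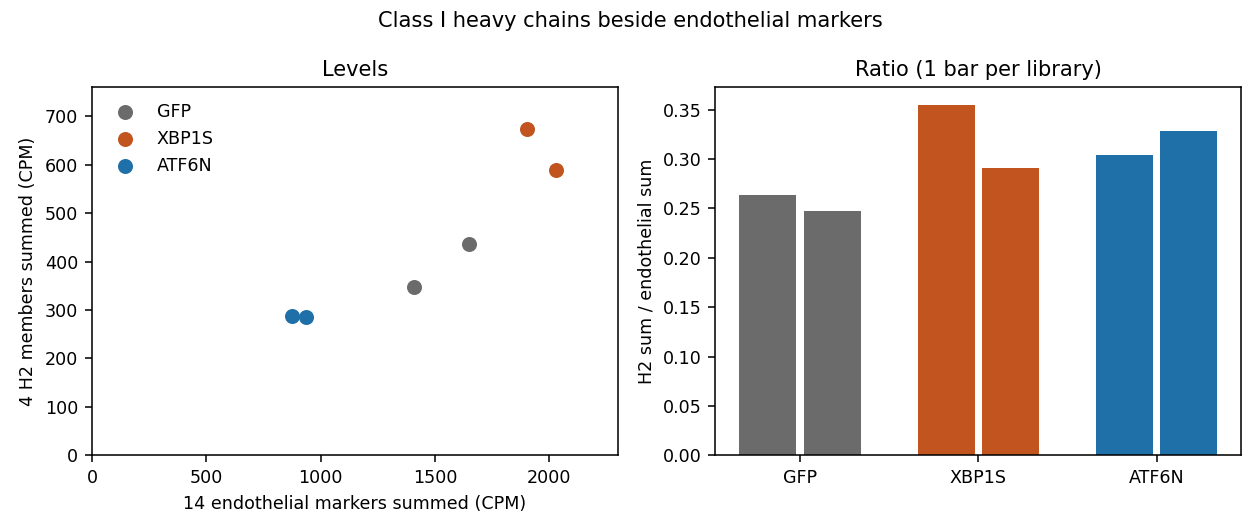
Summed H2 counts (H2-K1, H2-K2, H2-D1 and H2-Q6) against the summed endothelial markers (14 genes) in the 6 libraries, both in CPM, with each point 1 library coloured by group (left panel). ATF6N libraries are lowest on both axes, at 284.6 and 287.4 CPM of H2, and XBP1S libraries highest, at 674.6 and 589.7 CPM; the right panel gives the ratio of the sums, 1 bar per library from 0, on which XBP1S and ATF6N overlap (without Fabp4 all groups do).

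Across the 9538 genes of at least 5 CPM on average, the ones whose log2 CPM most resembled summed H2 over the 6 libraries were Anxa3 (r = 0.999), Abcb1a (r = 0.997), Hlx (r = 0.997), Sgce (r = 0.997) and Lxn (r = 0.996). The likeness is a description of 6 libraries that share groups and depth. Hlx, a homeobox gene, had log2 fold changes of 1.11 in XBP1S against GFP and -0.62 in ATF6N against GFP. Anxa3, an annexin, had 0.61 and -0.37, and Abcb1a, an efflux transporter known from vascular endothelium, had 0.63 and -0.43, none of them called.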

How the data were processed

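The 6 libraries were made from polyadenylated RNA with a SMART-Seq kit and Nextera XT, per the labels, and such libraries do not mark strand. The deposited table holds whole-number counts per gene with the gene's exons and summed exon length; the submitters' processing notes name mm10, STAR, featureCounts and DESeq2, with no versions; the annotation release and the treatment of reads that fit several places were not found in the labels or headers. A second deposited pair of tables holds, per the file headers, the authors' DESeq2 results: a base mean (signal), log2 fold changes, a Wald statistic (score) and p-values, raw and adjusted, quoted as the authors' own values. No column of per-sample values was left without a sample.

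The filter filterByExpr (edgeR) at a count minimum of 10 kept the genes tested (14587 of 23337). Counts were scaled by TMM and fitted with the quasi-likelihood test of edgeR 4.0.16 (R 4.3.3) over all 6 libraries with group as the only term, and p-values were adjusted by Benjamini-Hochberg over all genes tested at a threshold of 0.05. The standard error is the absolute log2 fold change divided by the square root of the F statistic. For the sum, the 4 H2 rows were replaced by 1 row and the table was refitted. Levels are TMM-scaled CPM, and RPKM uses the deposited exon length. Floors are 3 counts per library. The depth of each library is the total of its counts. Alternatives were DESeq2 1.42.0, upper-quartile scaling, no filter, only the compared libraries, a replicate block and leaving out each library. The fit was tested on simulated data.

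The members and lists were chosen with earlier results of these data known. Named genes are all members and their sum, and of the other lists the genes that passed, the 2 largest changes of at least 5 CPM per list and comparison, a fixed set of pathway genes, and the 5 genes most like summed H2. Not every gene so chosen is described, and 1 of the fixed set is not reported here. H2-T24, H2-M3, H2-T23, Tapbpl, Pecam1, Emcn, Fabp4, Kcnj8, Rgs5, Abcc9, Myh6, Lum, Lyz2, Col1a1 and Dcn are given as members of their lists. Cd3e, Sec61b, Tmed10, Acta2 and Cspg4 were chosen after their values were seen, as were the marker sums without Fabp4 or Acta2. Shared words were counted between GENCODE M21 transcripts, in steps of 1 base.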

Additional observations from a re-analysis of the deposited data

How the results depend on the processing

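The number of genes called depended on the settings more than the members' directions did. It was 46, 75 and 33 genes in XBP1S against GFP, ATF6N against GFP and ATF6N against XBP1S; 520, 593 and 839 with DESeq2, 233, 348 and 458 with no filter on low counts, and 13, 8 and 666 with only the 4 libraries compared. Leaving out 1 library gave 2 to 242, 4 to 3052 and 1 to 669, the highest without GFP 2, GFP 2 and GFP 1 and the lowest without an XBP1S or ATF6N library. Replicate differences ran alike in GFP and XBP1S (r = 0.379) but not in GFP and ATF6N (-0.04) or XBP1S and ATF6N (-0.048), so the numbers were not taken to pair the libraries; with a replicate block the counts were 165, 237 and 356, and summed H2 in ATF6N against XBP1S was -1.138 with an adjusted p of 0.0326. That difference also passed with DESeq2 (-1.146), no filter (-1.145) and only the 4 libraries (-1.142), and ranged from -1.241 to -1.087 over left-out libraries, passing without GFP 1 (adjusted p = 0.02) or GFP 2 (0.0193). The sum ranged from 0.561 to 0.856 in XBP1S and from -0.602 to -0.286 in ATF6N against GFP. The calls of H2-Q6 in XBP1S (adjusted p 0.0839 to 0.246) and of H2-K2 in ATF6N (0.0813 to 0.332) were lost without any 1 XBP1S or ATF6N library, and with only the 4 libraries (0.0775 and 0.0757). Psmb8 and Psmb9 in ATF6N against GFP passed with DESeq2 (0.00386 and 0.0241), no filter (0.0217 and 0.0499), the replicate block (0.0339 and 0.0397) and without GFP 2 (0.033 and 0.0325). Members called lower in ATF6N against XBP1S were 8 with DESeq2, 6 with no filter, 7 with only the 4 libraries, 6 with the block, 8 without either GFP library and 0 without any XBP1S or ATF6N library. Over left-out libraries signs turned in XBP1S against GFP for Tap2 (-0.15 without GFP 1, -0.084 without XBP1S 2, up to 0.296), Tapbp (-0.145 without GFP 1, up to 0.308) and Psmb8 (-0.048 without XBP1S 1, up to 0.694), and in ATF6N against GFP for B2m (0.161 without GFP 1, down to -0.466) and Tapbp (0.016 without GFP 2, down to -0.413). The cause was not tested, except that fewer libraries leave fewer degrees of freedom.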

Other observations

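Of the class I-related molecules outside the H2 complex, 0 of the 4 tested were called by edgeR in any comparison. Mr1, which presents vitamin metabolites to mucosal-associated T cells, stood at 4.471 and 9.512 CPM in GFP, 8.534 and 12.63 CPM in XBP1S, and 13.26 and 15.25 CPM in ATF6N. Its log2 fold change in ATF6N against GFP was 1.03 (SE 0.40, edgeR adjusted p = 0.354), with both ATF6N libraries above all others. Fcgrt, the neonatal Fc receptor, which also pairs with beta-2 microglobulin, stood at 161.5 and 129 CPM in GFP, 136.8 and 100.5 CPM in XBP1S, and 88.71 and 94.7 CPM in ATF6N, with a log2 fold change of -0.66 (SE 0.23, adjusted p = 0.331) in ATF6N against GFP. Cd1d1, which presents lipids to natural killer T cells, stood at 8.393 and 6.075 CPM in GFP, 8.792 and 9.753 CPM in XBP1S, and 6.137 and 6.982 CPM in ATF6N, with GFP and ATF6N overlapping. At an unadjusted p under 0.05 the list had 1 higher and 1 lower gene in ATF6N against GFP and 0 in XBP1S against GFP, and DESeq2 called 0 in any comparison. Of all genes 6.92% were higher and 6.54% lower in ATF6N against GFP at the unadjusted p.

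Of 7 cytosolic peptidases that trim or destroy peptides before transport, none was called by edgeR in any comparison, and 1 was higher and 2 were lower in XBP1S against GFP at an unadjusted p under 0.05. DESeq2 called Dpp3 higher in XBP1S against GFP and no other. In that comparison 6.37% of all genes were higher and 5.21% lower by the unadjusted p, and DESeq2 called 2.1% higher. Dpp3, a dipeptidyl peptidase, stood at 47.29 and 51.92 CPM in GFP, 86.27 and 77.32 CPM in XBP1S, and 62.24 and 62.54 CPM in ATF6N, so that the groups did not overlap. Its log2 fold change in XBP1S against GFP was 0.72 (SE 0.19, edgeR adjusted p = 0.243). Tpp2, tripeptidyl peptidase II, stood at 25.79 and 52.37 CPM in GFP, 45.5 and 86.33 CPM in XBP1S, and 91.07 and 84.53 CPM in ATF6N, with XBP1S overlapping both other groups.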
